A study of Mus musculus with 5 samples.

Results

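The limb mesenchyme transcription factors described here are 10 genes that pattern the early limb or mark its mesenchyme, namely Prrx1, Prrx2, Twist1, Twist2, Shox2, Pitx1, Tbx3, Tbx4, Meis1 and Meis2. They were taken by name from the 30046 features of the raw count table, and all 10 were found there. Their levels were compared between stromal cells of 2 origins in the femoral marrow of mice at P21. Dlx5CE-E12.5 cells (3 libraries) came from Cxcl12(GFP/+); Dlx5(CreER/+); R26R(tdTomato/+) mice, and Fgfr3CE-E12.5 cells (2 libraries) came from Cxcl12(GFP/+); Fgfr3-iCreER; R26R(tdTomato/+) mice. All mice received tamoxifen at E12.5, and all carried 1 Cxcl12 allele with GFP in its place. The Dlx5-creER driver marks cells of the outer fetal perichondrium, the Fgfr3-iCreER transgene marks fetal chondrocytes, and tdTomato marks whatever descended from the marked cells. Cells with high Cxcl12-GFP and with tdTomato were sorted from femurs after the distal growth plates were removed, and cells of littermates with the same genotype were pooled. The gate selects Cxcl12-abundant reticular (CAR) cells, the perivascular stromal cells that feed blood progenitors.

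Limb bud mesenchyme is the embryonic tissue from which the cartilage, bone and connective tissue of the limb arise. Paired-related homeobox factors (Prrx) and Twist factors keep this mesenchyme growing and hold back its differentiation. Meis factors mark the proximal segment of the bud that becomes the thigh and upper arm. Shox2 is required for growth of those proximal bones, and Pitx1 and Tbx4 are factors of the hindlimb bud. Stromal cells of postnatal bone can go on expressing several of them, so the levels of these factors in cells of perichondrial and of chondrocyte origin can be set side by side.

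Total counts ran from 22035650 to 32563758 in Dlx5CE-E12.5 libraries and from 56355203 to 58166285 in Fgfr3CE-E12.5 libraries. At these depths, 3 counts, taken as the smallest detectable amount, equal between 0.0516 and 0.136 CPM (counts relative to library size), which covers counting error only. The driver transcripts matched the labels, with 416 to 467 counts of cre in Dlx5CE-E12.5 libraries against 1 in each Fgfr3CE-E12.5 library, and 451 to 521 counts of iCre.ERT2 against 3762 and 4802. According to the methods of the study, reads of the lineages came from different sequencers and had different lengths, while the series description names the same sequencer for all libraries. If the methods hold, sequencer and read length cannot be told apart from lineage in any comparison here. Levels below are CPM scaled by trimmed mean of M-values (TMM), and log2 fold changes are Fgfr3CE-E12.5 over Dlx5CE-E12.5, so a negative value means a higher level in Dlx5CE-E12.5 cells. In sorted bulk samples, fewer cells of a type and less RNA per cell cannot be told apart.

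The 10 factors did not move as 1 group. The main test took in protein-coding genes that reached a CPM of 10 in 2 or more libraries, and 6 of the 10 did. Of these, 3 (Shox2, Meis1 and Meis2) were higher in Dlx5CE-E12.5 cells and 2 (Twist1 and Pitx1) were higher in Fgfr3CE-E12.5 cells when both an adjusted p under 0.05 and a log2 fold change beyond 1 in either direction were required. Among all 10088 genes tested, 13.1% passed these thresholds toward Dlx5CE-E12.5 cells and 16.4% toward Fgfr3CE-E12.5 cells. Prrx2, Twist2, Tbx3 and Tbx4 were below that level and were tested with all 13225 genes that reached a CPM of 1 in at least 2 libraries, of which 12.9% were higher in Dlx5CE-E12.5 cells and 16.6% in Fgfr3CE-E12.5 cells. With this lower filter, Tbx3 joined the first direction and Prrx2 and Tbx4 joined the second, which gave 4 factors each way and left Prrx1 and Twist2 short of the thresholds. However, Prrx2 and Tbx4 reached a CPM of 1, and Twist1 a CPM of 10, in the Fgfr3CE-E12.5 libraries only. Factors admitted in this way could be called only as higher in Fgfr3CE-E12.5 cells, so the counts each way are in part a product of the filter. The libraries of the lineages did not overlap for any of the 10 factors, 6 being higher in every Dlx5CE-E12.5 library and 4 in every Fgfr3CE-E12.5 library, but the same was true of 66.5% of all genes tested. The count is a description.

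**Figure D1:**
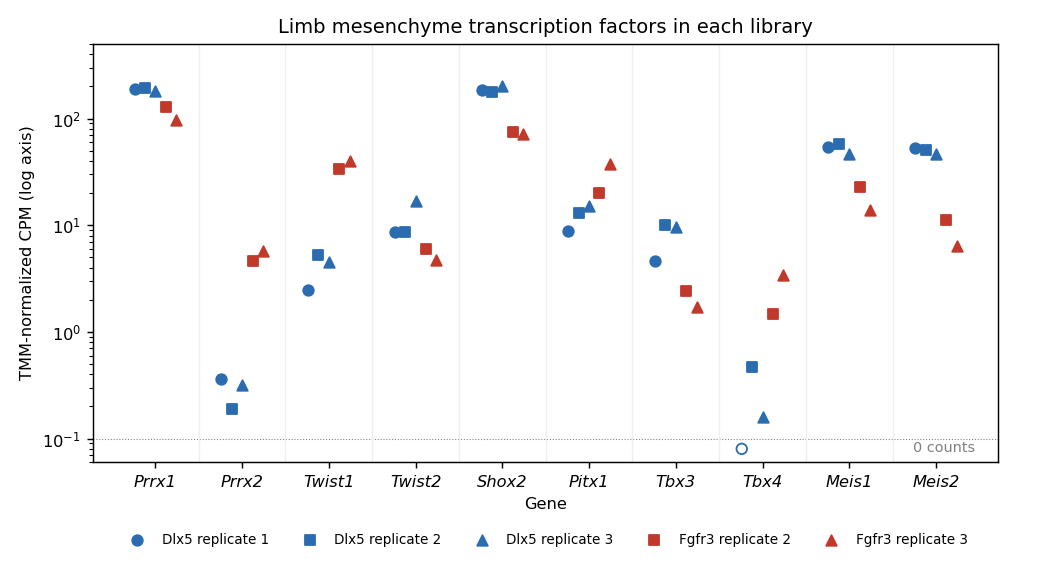
TMM-normalized CPM (log axis) of each limb mesenchyme transcription factor in the 3 Dlx5 libraries (blue) and the 2 Fgfr3 libraries (red), 1 point per library, with the hollow point marking 0 counts of Tbx4. Prrx2, Twist1, Pitx1 and Tbx4 lie higher in both red libraries, the other 6 in all 3 blue libraries.

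Prrx1 and Prrx2 are homeobox factors of the paired class that act together in limb outgrowth, and Prrx1 is also a mark of skeletal progenitors. They went different ways. Prrx1 (chromosome 1, 163245119 to 163313710, minus strand, GRCm38) stood at 189, 191 and 180 CPM in Dlx5CE-E12.5 libraries and at 128 and 96.3 CPM in Fgfr3CE-E12.5 libraries. Its log2 fold change was -0.72 (SE 0.16, 95% interval -1.09 to -0.34, adjusted p = 0.0096 by edgeR's quasi-likelihood test), which passed the p-value threshold and missed the fold threshold. Prrx1 was thus abundant in both lineages. Prrx2 (chromosome 2, 30834972 to 30881251, plus strand) had 11, 4 and 8 counts in Dlx5CE-E12.5 libraries against 287 and 370 in Fgfr3CE-E12.5 libraries, or 0.361, 0.189 and 0.320 CPM against 4.63 and 5.78 CPM. Its level was 17.5-fold higher in Fgfr3CE-E12.5 cells (log2 fold change 4.13, SE 0.49, 95% interval 2.97 to 5.28, adjusted p = 8.14e-04), the largest change of the 10 factors. With so few counts in Dlx5CE-E12.5 cells, the fold depends on 4 to 11 reads a library.

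Per kilobase of exon, Prrx1 exceeded Prrx2 in every library, by 92.8-, 179- and 99.6-fold in Dlx5CE-E12.5 cells and by 4.90- and 2.95-fold in Fgfr3CE-E12.5 cells. The genes also differ in base composition, with a transcript GC content of 43.6% for Prrx1 and 63.6% for Prrx2. When the trend of fold change on GC content was removed, the log2 fold change of Prrx2 was 3.49 (adjusted p = 0.0015) and that of Prrx1 was -0.65. Their promoters, 250 bases before and 50 after the transcription start in RefSeq on GRCm38.p6, are shown because they differ in composition as well, with each CpG in capitals. The Prrx1 window (chr1:163313601-163313900, minus strand) holds 6 CpG and the Prrx2 window (chr2:30845117-30845416, plus strand, at a start within the annotated gene) holds 28, where the median of 32851 promoters is 7.
Prrx1: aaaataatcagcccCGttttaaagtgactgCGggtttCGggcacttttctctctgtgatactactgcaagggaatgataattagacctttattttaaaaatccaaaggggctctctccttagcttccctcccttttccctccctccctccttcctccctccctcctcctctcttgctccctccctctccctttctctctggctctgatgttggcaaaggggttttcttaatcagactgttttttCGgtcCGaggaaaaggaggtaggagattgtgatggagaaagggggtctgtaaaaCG
Prrx2: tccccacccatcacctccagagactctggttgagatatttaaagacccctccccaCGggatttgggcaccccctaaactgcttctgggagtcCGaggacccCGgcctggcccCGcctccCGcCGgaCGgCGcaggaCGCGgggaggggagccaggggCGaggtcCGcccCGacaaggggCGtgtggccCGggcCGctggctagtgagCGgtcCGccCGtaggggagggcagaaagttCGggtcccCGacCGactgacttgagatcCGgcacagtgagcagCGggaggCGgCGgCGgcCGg

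Twist1 and Twist2 are basic helix-loop-helix (bHLH) factors that bind E-boxes as dimers and restrain osteoblast differentiation. Twist1 (chromosome 12, 33957671 to 33959829, plus strand) was higher in Fgfr3CE-E12.5 cells. It stood at 2.46, 5.25 and 4.49 CPM in Dlx5CE-E12.5 libraries (75, 111 and 112 counts) and at 33.9 and 39.9 CPM in Fgfr3CE-E12.5 libraries (2101 and 2555 counts). This was 9.27-fold higher in Fgfr3CE-E12.5 cells (log2 fold change 3.21, SE 0.32, 95% interval 2.44 to 3.98, adjusted p = 3.82e-04), and the lowest Fgfr3CE-E12.5 library lay far above the highest Dlx5CE-E12.5 library. Removal of the GC trend left a log2 fold change of 2.98.

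Twist2 (chromosome 1, 91801461 to 91848028, plus strand) lay the other way, at 8.67, 8.56 and 16.8 CPM in Dlx5CE-E12.5 libraries and 6.0 and 4.75 CPM in Fgfr3CE-E12.5 libraries. The log2 fold change of -1.08 (SE 0.38, 95% interval -1.96 to -0.19) did not pass the threshold at an adjusted p of 0.0535. Dlx5CE-E12.5 replicate 3 held about as much Twist2 as the other 2 libraries of its group together, and without it the log2 fold change was -0.69 (adjusted p = 0.174). DESeq2's Wald test (adjusted p = 0.0208) and edgeR's exact test (0.0247) did call Twist2 higher in Dlx5CE-E12.5 cells. The quasi-likelihood test also called it without Dlx5CE-E12.5 replicate 1 (adjusted p = 0.0448) and with the trend on exon length (0.0373) or GC content (0.0488) removed. Twist2 was called in 6 of 20 alternative settings and not in the other 14, so its call depends on the setting. Exons of the antisense gene Gm29100 cover 46.5% of the Twist2 exons, and reads of the genes cannot be told apart there without strand. Gm29100 itself had 3, 8 and 30 counts in Dlx5CE-E12.5 libraries and 4 and 0 in Fgfr3CE-E12.5 libraries, while Twist2 had 181 to 419 counts. These counts do not show how reads in the shared exons were assigned. If such reads were given to neither gene, Twist2 is understated, also in the levels and ratios per kilobase of exon below.

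Per kilobase of exon, the ratio of Twist1 to Twist2 was 0.554, 1.20 and 0.521 in Dlx5CE-E12.5 libraries and 11.0 and 16.4 in Fgfr3CE-E12.5 libraries. By the full exon length, Twist1 was thus the higher of the pair in both Fgfr3CE-E12.5 libraries and in 1 of 3 Dlx5CE-E12.5 libraries. Unlike the Prrx genes, their promoters are much alike in composition, with 27 CpG for Twist1 (chr12:33957421-33957720, plus strand) and 25 for Twist2 (chr1:91801211-91801510, plus strand). Both are given with each CpG in capitals, for comparison with the Prrx windows.
Twist1: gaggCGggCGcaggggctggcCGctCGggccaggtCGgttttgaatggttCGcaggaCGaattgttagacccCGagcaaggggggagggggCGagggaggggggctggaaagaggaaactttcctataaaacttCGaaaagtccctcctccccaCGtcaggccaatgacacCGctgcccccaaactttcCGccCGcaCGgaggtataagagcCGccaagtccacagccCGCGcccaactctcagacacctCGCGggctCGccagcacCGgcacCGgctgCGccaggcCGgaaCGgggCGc
Twist2: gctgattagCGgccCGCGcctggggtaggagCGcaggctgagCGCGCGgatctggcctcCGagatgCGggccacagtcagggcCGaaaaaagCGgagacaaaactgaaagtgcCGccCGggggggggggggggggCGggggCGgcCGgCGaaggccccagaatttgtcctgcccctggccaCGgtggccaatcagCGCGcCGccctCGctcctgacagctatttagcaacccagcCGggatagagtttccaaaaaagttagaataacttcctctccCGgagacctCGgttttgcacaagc

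Motif letters were also counted on both strands in the 8 factors whose promoter the RefSeq table holds, all but Pitx1 and Tbx3. The E-box CANNTG, the letters to which Twist dimers bind, was found in 2 of the 8 windows against 72.3% of all promoters, with 6 sites at Tbx4 and 1 at Meis1. The Meis letters TGACAG were found in 1 window (Twist2, against 19.2% of all promoters) and the homeodomain letters TAATTA in 1 window (Prrx1, against 5.29%). The windows with TGACAG or TAATTA held no E-box, so no sites overlapped, and the counts describe 8 windows only. GC content of the windows ran from 47.7% (Prrx1) to 70.3% (Prrx2) around a median of 52.7% for all promoters.

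**Figure D2:**
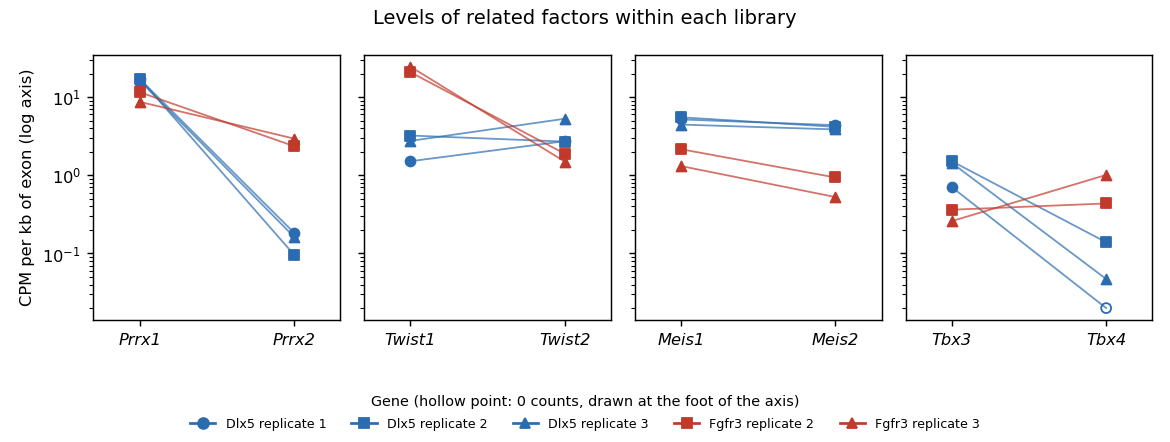
CPM per kilobase of exon (log axis) of 4 pairs of related factors, with a line joining the genes of a pair within 1 library (blue, Dlx5; red, Fgfr3). Blue lines for Prrx1 and Prrx2 fall by 92.8-fold or more and red lines by 4.90-fold or less, the red lines for Twist1 and Twist2 fall by 11.0- and 16.4-fold, and the lines for Meis1 and Meis2 fall by 2.49-fold or less.

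Shox2, Meis1 and Meis2, the factors of the proximal limb, were higher in Dlx5CE-E12.5 cells. Shox2 (chromosome 3, 66971727 to 66981771, minus strand) stood at 185, 178 and 203 CPM in Dlx5CE-E12.5 libraries and 74.1 and 71.6 CPM in Fgfr3CE-E12.5 libraries. It was 2.55-fold higher in Dlx5CE-E12.5 cells (log2 fold change -1.35, SE 0.13, 95% interval -1.67 to -1.04, adjusted p = 3.49e-04). This was the tightest estimate among the 10 factors, and the Fgfr3CE-E12.5 libraries were nearly equal. When libraries were scaled by mesenchymal genes in place of TMM, the log2 fold change of Shox2 was -0.91 and no longer passed the fold threshold, under a scaling that moved the median of all genes from 0.01 to 0.46. Shox2 shares 4.62% of its exon bases with Rsrc1 on the opposite strand, which had 1743 to 2624 counts in Dlx5CE-E12.5 libraries and 4118 to 5738 in Fgfr3CE-E12.5 libraries.

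Meis1 and Meis2 are homeobox factors of the TALE class that bind DNA with Pbx partners. Meis1 (chromosome 11, 18879817 to 19018985, minus strand) stood at 54.6, 58.1 and 46.9 CPM in Dlx5CE-E12.5 libraries and 22.7 and 13.8 CPM in Fgfr3CE-E12.5 libraries, 2.87-fold higher in the former (log2 fold change -1.52, SE 0.25, adjusted p = 0.00249). Meis2 (chromosome 2, 115863064 to 116065839, minus strand) stood at 52.7, 50.2 and 46.5 CPM against 11.3 and 6.34 CPM, 5.57-fold higher in Dlx5CE-E12.5 cells (log2 fold change -2.48, SE 0.27, 95% interval -3.13 to -1.83, adjusted p = 5.33e-04). Meis2 had the largest change toward Dlx5CE-E12.5 cells of the 10 factors, and the Dlx5CE-E12.5 libraries differed little among themselves for either gene. Per kilobase of exon, Meis1 exceeded Meis2 by 1.15- to 1.32-fold in Dlx5CE-E12.5 libraries and by 2.30- and 2.49-fold in Fgfr3CE-E12.5 libraries. Exons of Gm37818 on the same strand and of the antisense gene Gm16140 cover 9.77% and 8.51% of the Meis1 exons, each with 101 counts or fewer in the Dlx5CE-E12.5 libraries.

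Pitx1 and Tbx4, the hindlimb factors, were both higher in Fgfr3CE-E12.5 cells, with less certainty than Twist1 or Prrx2. Pitx1 (chromosome 13, 55825051 to 55836192, minus strand) stood at 8.74, 12.9 and 15.0 CPM in Dlx5CE-E12.5 libraries and 20.2 and 37.8 CPM in Fgfr3CE-E12.5 libraries. It was 2.41-fold higher in Fgfr3CE-E12.5 cells (log2 fold change 1.27, SE 0.33, 95% interval 0.48 to 2.06, adjusted p = 0.0181). The Fgfr3CE-E12.5 libraries differed by 1.87-fold, and without replicate 3, the higher one, the log2 fold change was 0.81 (adjusted p = 0.111). The call was also lost without Dlx5CE-E12.5 replicate 2 (log2 fold change 1.31, adjusted p = 0.0501). Pitx1 has the highest transcript GC content of the 10 factors (65.8%), and removal of the GC trend lowered its log2 fold change to 0.61 (adjusted p = 0.0457), under the fold threshold. The antisense gene Gm47071 overlaps 6.21% of the Pitx1 exons and had 161 to 266 counts in Dlx5CE-E12.5 libraries and 381 and 432 in Fgfr3CE-E12.5 libraries, while Pitx1 had 266 to 375 and 1254 and 2419.

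Tbx4 (chromosome 11, 85886422 to 85916097, plus strand) had 0, 10 and 4 counts in Dlx5CE-E12.5 libraries and 92 and 220 counts in Fgfr3CE-E12.5 libraries, the latter equal to 1.48 and 3.44 CPM. The fitted log2 fold change of 3.62 (SE 1.07, 95% interval 1.08 to 6.15, adjusted p = 0.0311) had the widest interval of the 10 factors, and its size depends on how counts near 0 are handled. The log2 fold change was 2.97 without Dlx5CE-E12.5 replicate 1 and 4.98 without replicate 2, and without replicate 3 the call was lost (3.48, adjusted p = 0.0817). Tbx5, the forelimb counterpart of Tbx4, was below the lower filter, with 72, 13 and 0 counts in Dlx5CE-E12.5 libraries and 0 in both Fgfr3CE-E12.5 libraries (it was singled out after its values were seen).

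Tbx3, a T-box repressor active along the margins of the limb bud, went with the Dlx5CE-E12.5 group. Tbx3 (chromosome 5, 119670669 to 119684724, plus strand) stood at 4.66, 10.02 and 9.53 CPM in Dlx5CE-E12.5 libraries and 2.40 and 1.72 CPM in Fgfr3CE-E12.5 libraries, 3.91-fold higher in the former (log2 fold change -1.97, SE 0.45, 95% interval -3.02 to -0.92, adjusted p = 0.0112). Without Fgfr3CE-E12.5 replicate 3 the log2 fold change was -1.72 (adjusted p = 0.0664). Its closest relative Tbx2, also singled out after its values were seen, went the other way, at 7.42 ± 3.32 CPM (SD, n = 3) in Dlx5CE-E12.5 cells and 51.6 ± 13.5 CPM (SD, n = 2) in Fgfr3CE-E12.5 cells (log2 fold change 2.80, SE 0.38, adjusted p = 0.00141 by edgeR). Per kilobase of exon, Tbx3 exceeded Tbx4 by 10.9- and 30.5-fold in Dlx5CE-E12.5 replicates 2 and 3, and Tbx4 exceeded Tbx3 by 1.20- and 3.90-fold in Fgfr3CE-E12.5 replicates 2 and 3. In Dlx5CE-E12.5 replicate 1 Tbx4 had 0 counts, so no ratio is given.

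**Figure D3:**
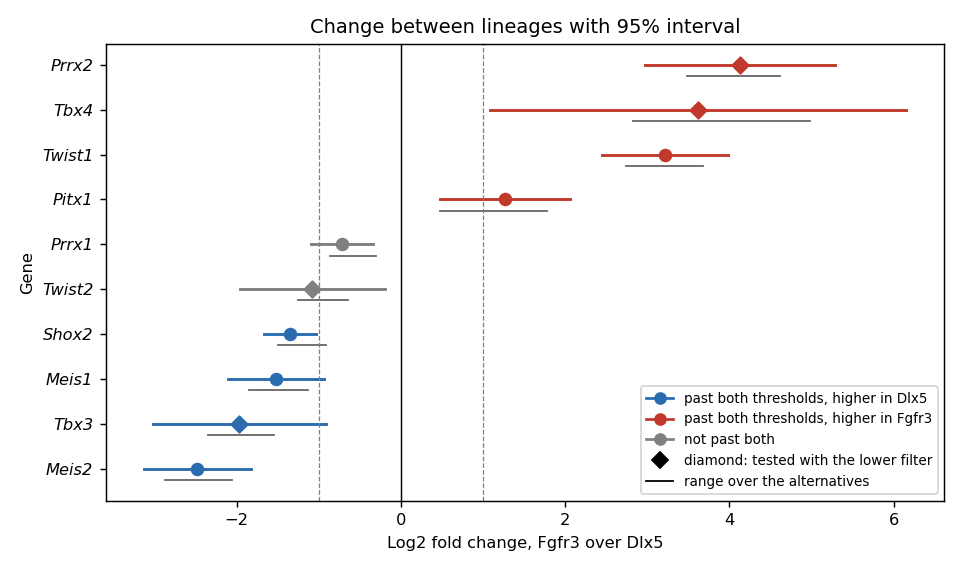
Log2 fold change of each factor, Fgfr3 over Dlx5, with its 95% interval (thick line; diamonds were tested with the lower filter) and its range over the alternative settings (thin line), dashed lines marking the fold threshold. Meis2 lies lowest at -2.48 and Prrx2 highest at 4.13, and no thin line crosses 0.

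Set in order of CPM per kilobase of exon, the factors stood differently in each lineage. In Dlx5CE-E12.5 cells, Shox2 led at 57.0 ± 3.87 (SD, n = 3), followed by Prrx1 at 16.9 ± 0.54, and the libraries of these 2 genes overlapped neither each other nor those of the next gene. Meis1, Pitx1, Meis2, Twist2, Twist1 and Tbx3 followed, from 5.05 down to 1.22, and each overlapped with its neighbour in this order across libraries. Prrx2 (0.148) and Tbx4 (0.0620) came last. In Fgfr3CE-E12.5 cells, Twist1 at 22.7 ± 2.63 (SD, n = 2) and Shox2 at 22.01 ± 0.53 led with overlapping libraries, and Pitx1 (10.9) and Prrx1 (10.1) came next, also overlapping. Prrx2 stood at 2.65, Meis1 at 1.73 and Twist2 at 1.69, ahead of Meis2 (0.732), Tbx4 (0.723) and Tbx3 (0.311). Shox2 and Prrx1 were thus among the first 4 in both lineages, while Twist1 moved from the seventh place to the first.

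The factors that were higher in Fgfr3CE-E12.5 cells were also higher in Fgfr3CE-E12.5 replicate 3 than in replicate 2, by 1.18-fold for Twist1, 1.25-fold for Prrx2, 1.87-fold for Pitx1 and 2.32-fold for Tbx4. The other 6 were higher in replicate 2, by 1.03-fold for Shox2 and up to 1.78-fold for Meis2. These libraries also differed in markers of cell types. Leukocyte markers, none of which was at 0, summed to 391 to 481 CPM in Dlx5CE-E12.5 libraries and to 1263 and 2702 CPM in Fgfr3CE-E12.5 replicates 2 and 3, with 10 of 10 markers higher in Fgfr3CE-E12.5 cells. Osteoblast markers summed to 3762 to 5306 CPM against 7172 and 9616 CPM, with 5 of 8 higher in Fgfr3CE-E12.5 cells. CAR cell markers summed to 32980 to 34887 CPM against 13150 and 8596 CPM, with 6 of 9 higher in Dlx5CE-E12.5 cells and 1, Foxc1, higher in Fgfr3CE-E12.5 cells. Cxcl12, the gene whose GFP allele was used in the sort, made up most of each of these sums. It stood at 22559, 22444 and 21401.5 CPM in Dlx5CE-E12.5 libraries and at 8003 and 5745 CPM in Fgfr3CE-E12.5 libraries. The part of these differences in the levels of the limb factors was not tested.

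Chondrocyte markers summed to 130 to 137 CPM in Dlx5CE-E12.5 libraries and to 3231 and 444 CPM in Fgfr3CE-E12.5 replicates 2 and 3, with 8 of the 9 tested higher in Fgfr3CE-E12.5 cells and Col9a1 and Matn1 at 0 in every Dlx5CE-E12.5 library. However, Matn3, Hapln1, Col9a1, Col9a3, Acan and Matn1 reached a CPM of 1 in the Fgfr3CE-E12.5 libraries only. They could be called only as higher in Fgfr3CE-E12.5 cells, so this count is in part a product of the filter. Of all genes tested with the lower filter, 16.6% were higher in Fgfr3CE-E12.5 cells. Sox9, the tested marker that was not called, made up most of the Dlx5CE-E12.5 sums at 125, 117 and 123 CPM. It stood lower in Fgfr3CE-E12.5 libraries, at 96.0 and 53.2 CPM (log2 fold change -0.71, adjusted p = 0.0524 by edgeR's quasi-likelihood test). Periosteal markers summed to 423 to 496 CPM in Dlx5CE-E12.5 libraries and to 475 and 482 CPM in Fgfr3CE-E12.5 libraries, but of the 6 tested, 2 were higher in the former and 1 in the latter. Mural markers summed to 84.3 to 272 CPM against 126 and 140 CPM, with 1 of 6 higher in Dlx5CE-E12.5 cells and 3 in Fgfr3CE-E12.5 cells, so similar sums held genes that differed both ways. Blood progenitor markers, a list given because Meis1 is also expressed in such cells, summed to 29.3 to 45.9 CPM against 86.1 and 108 CPM, with 1 of 7 (Kit) higher in Fgfr3CE-E12.5 cells and the other 6 not past the thresholds. Endothelial markers summed to 23.8 to 48.5 CPM against 35.2 and 52.0 CPM, with 1 of 8 higher in Dlx5CE-E12.5 cells. Muscle markers summed to 4.01 to 4.93 CPM against 2.48 and 5.41 CPM, with 1 of 2 tested higher in Dlx5CE-E12.5 cells. Myh11 of the mural list and Acta1 of the muscle list reached a CPM of 1 in the Dlx5CE-E12.5 libraries only, so they could be called only that way. Erythroid markers summed to 17663 to 36178 CPM against 13444 and 19942 CPM, with 2 of 7 higher in Dlx5CE-E12.5 cells. The part of these lists in the levels of the limb factors was not tested either.

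**Figure D4:**
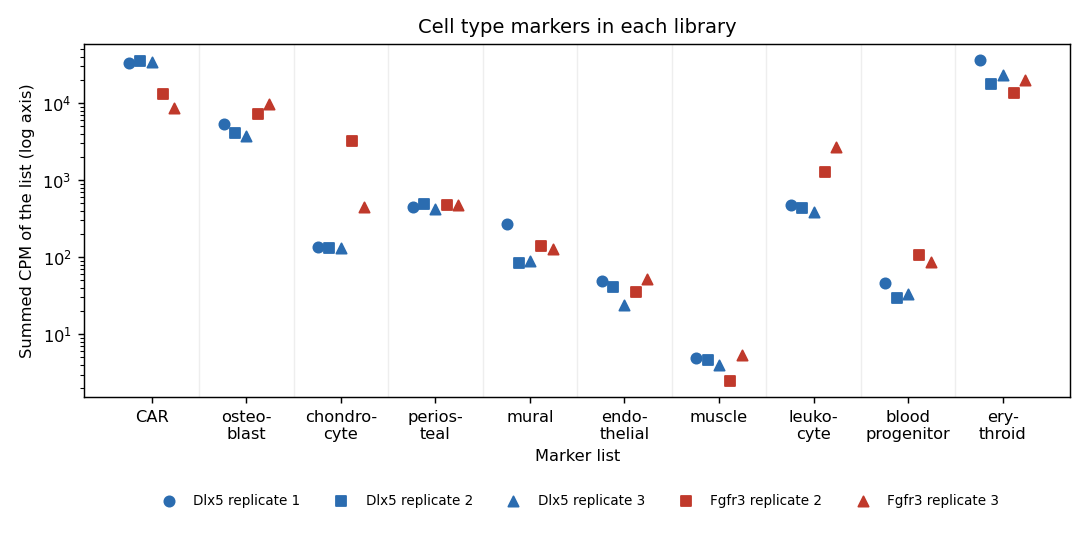
Summed CPM (log axis) of each list of cell type markers in the 3 Dlx5 libraries (blue) and the 2 Fgfr3 libraries (red), 1 point per library. The sums of CAR cell markers are lower and those of leukocyte, osteoblast and blood progenitor markers higher in both red libraries, and chondrocyte markers are highest in Fgfr3 replicate 2 at 3231 CPM.

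The related transcription factors, taken as 5 lists with 83 genes, also went both ways. With the lower filter 51 of the 83 were tested, of which 12 were higher in Dlx5CE-E12.5 cells, 13 were higher in Fgfr3CE-E12.5 cells and 26 did not pass the thresholds. Of all 13225 genes tested with this filter, 12.9% were higher in Dlx5CE-E12.5 cells and 16.6% in Fgfr3CE-E12.5 cells. However, Tcf15, Tbx21, Eomes, Alx1, Lhx2, Etv4 and Msx2 reached a CPM of 1 in the Fgfr3CE-E12.5 libraries only. They could be called only as higher in Fgfr3CE-E12.5 cells, and Etv4 and Msx2 are named for this limit alone. Barx2 reached it in Dlx5CE-E12.5 libraries only and could be called only that way. The counts each way are thus in part a product of the filter. The counts for each list below are small and are a description. The median log2 fold change of the related factors was -0.02, against -0.91 for the 10 limb factors and 0.01 for all genes tested. With calls in both directions, the median of the limb factors falls between the uncalled Twist2 (-1.08) and Prrx1 (-0.74). It does not show a shift of the group.

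Among TALE relatives and partners of Meis, 12 of 16 were tested, 3 were higher in Dlx5CE-E12.5 cells and 2 in Fgfr3CE-E12.5 cells, with a median log2 fold change of -0.03. Tgif2, a TALE repressor, stood at 71.2, 88.4 and 114 CPM in Dlx5CE-E12.5 libraries and at 42.3 and 23.95 CPM in Fgfr3CE-E12.5 libraries (log2 fold change -1.46, SE 0.30, adjusted p = 0.00775), and Mkx, a tendon factor, was also higher in Dlx5CE-E12.5 cells (log2 fold change -1.37). The 2 that were higher in Fgfr3CE-E12.5 cells were the Iroquois factors Irx3 (log2 fold change 1.34) and Irx5 (2.53). Pbx2 and Pbx3 did not pass the thresholds (log2 fold change 0.05 and 0.44), nor did Meis3 (-0.02), whose 61.7 ± 0.54 CPM in Dlx5CE-E12.5 cells (SD, n = 3) stood beside 61.0 ± 11.8 CPM in Fgfr3CE-E12.5 cells (SD, n = 2). Mkx, Irx3 and Irx5 were named here because the counts are small.

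Among partners, antagonists and relatives of Twist, 9 of 13 were tested, 1 was higher in Dlx5CE-E12.5 cells and 3 in Fgfr3CE-E12.5 cells, with a median of -0.12. Id4, which lacks a DNA-binding domain and titrates bHLH dimers, stood at 32.1, 35.5 and 30.2 CPM in Dlx5CE-E12.5 libraries and at 547 and 656 CPM in Fgfr3CE-E12.5 libraries, 18.5-fold higher (log2 fold change 4.21, SE 0.16, adjusted p = 4.12e-05). The other Id genes did not pass the thresholds, with log2 fold changes of -0.62 for Id1, -0.28 for Id2 and -0.33 for Id3. Tcf3, which encodes the E proteins E12 and E47 that dimerize with Twist1, stood at 26.5 ± 5.52 CPM (SD, n = 3) against 223 ± 100.4 CPM (SD, n = 2), a log2 fold change of 3.07 (SE 0.30, adjusted p = 3.93e-04). The related E proteins Tcf4 and Tcf12 did not pass the thresholds (log2 fold change -0.12 and 0.55). Msc (musculin), a bHLH repressor, was higher in Dlx5CE-E12.5 cells (log2 fold change -1.49, SE 0.20, adjusted p = 0.00139), and Tcf15, a bHLH factor of the paraxial mesoderm, was higher in Fgfr3CE-E12.5 cells from 0 to 6 counts in the Dlx5CE-E12.5 libraries (log2 fold change 3.20, SE 1.00). Tcf3, the remaining call of this list, was named after its values were seen.

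Of other T-box factors, 7 of 14 were tested, 1 (Mga) was higher in Dlx5CE-E12.5 cells and 3 were higher in Fgfr3CE-E12.5 cells, namely Tbx2, Tbx21 and Eomes, with a median of 0.88. Tbx21 and Eomes are factors of T and natural killer lymphocytes. Tbx21 had 0, 6 and 0 counts in Dlx5CE-E12.5 libraries and 60 and 107 in Fgfr3CE-E12.5 libraries, and Eomes had 0, 9 and 7 against 140 and 144. Of the other paired and aristaless-type factors, 2 of 10 were tested and 1 was called, Alx1 (a factor of craniofacial mesenchyme), with 0, 0 and 10 counts against 155 and 90 (log2 fold change 3.85, SE 1.24, adjusted p = 0.0409).

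In the list of other limb bud factors, 7 of 21 tested were higher in Dlx5CE-E12.5 cells and 4 in Fgfr3CE-E12.5 cells, with a median of -0.42. Zfhx4, a zinc finger homeobox factor, stood at 221, 265 and 249 CPM in Dlx5CE-E12.5 libraries against 77.3 and 39.2 CPM (log2 fold change -2.07, SE 0.30, adjusted p = 0.00174). Gli3, the transcriptional repressor of hedgehog signalling that patterns the limb bud, stood at 29.4, 54.8 and 49.4 CPM against 18.7 and 12.01 CPM (log2 fold change -1.53, SE 0.33, adjusted p = 0.0087). Barx2 was low throughout, with 52, 33 and 22 counts in Dlx5CE-E12.5 libraries and 13 and 7 in Fgfr3CE-E12.5 libraries (log2 fold change -3.10, SE 0.71). In the other direction, Lhx2, which maintains limb outgrowth under the apical ectodermal ridge, had 22, 0 and 2 counts against 273 and 157 (log2 fold change 3.57, SE 1.11, adjusted p = 0.036). The Dlx5CE-E12.5 counts of Lhx2 came almost wholly from replicate 1.

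**Figure D5:**
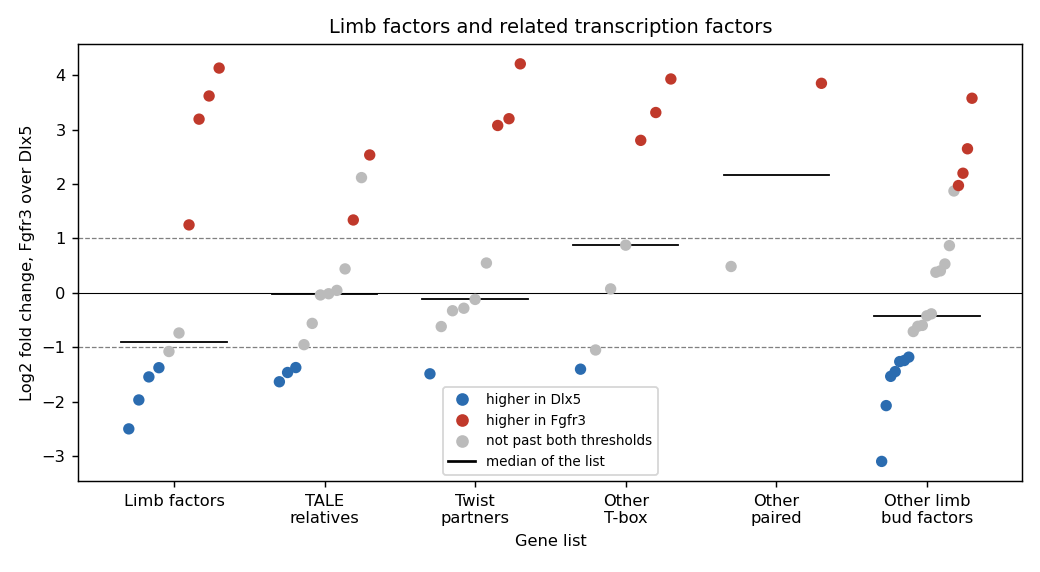
Log2 fold change, Fgfr3 over Dlx5, of each tested gene (1 point per gene, lower filter) for the 10 limb factors and 5 lists of related factors, coloured by call, with each list's median as a black line and the fold threshold dashed. The limb factors have a median of -0.91 with 4 calls in each direction, and the TALE relatives and Twist partners have medians of -0.03 and -0.12.

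Transcript GC content ran along with direction among the 10 factors. The 4 that were higher in Fgfr3CE-E12.5 libraries had GC contents of 53.9% (Tbx4), 59.3% (Twist1), 63.6% (Prrx2) and 65.8% (Pitx1), and the 6 that were higher in Dlx5CE-E12.5 libraries had 42.4% (Meis1) to 54.2% (Tbx3). With the GC trend across all genes removed, every factor kept its direction and Pitx1 alone lost its call among the 8, while Twist2 gained one (log2 fold change -1.10, adjusted p = 0.0488).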

How the data were processed

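Bulk RNA-seq was analysed for 3 Dlx5CE-E12.5 and 2 Fgfr3CE-E12.5 libraries, grouped by their labels. Complementary DNA was made with a SMART-Seq kit for low input and libraries with Nextera XT, which do not mark strand. The authors aligned reads to mm10 and deposited whole read counts per gene without normalization. The submitters' processing notes name TopHat2 2.0.13, Bowtie2 2.2.1 and HTSeq, and the strand setting of the counting is not given in the sources used here. The depth-normalized and rlog values that were also deposited were not used. Every column used was mapped to 1 library.

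Counts were tested with edgeR 4.0.16 (R 4.3.3) by the quasi-likelihood test with TMM normalization and no covariates, on protein-coding genes and reporters that reached a CPM of 10 in 2 or more libraries, with Benjamini-Hochberg adjustment over all genes tested. Genes were called at an adjusted p under 0.05 with a log2 fold change beyond 1 in either direction. Members below the filter were tested in the same way with a CPM minimum of 1. Levels of all members are from the TMM factors of the lower filter. Standard errors were derived from the F statistic. Coordinates, exon length and GC content are from GENCODE M21 on GRCm38, which held 29965 of the 30046 features, and 5 more features were reporters. Pairs of libraries of the same group differed by 26.3 to 301 chi-square units per degree of freedom, so none was a copy of another. The study calls the 5 libraries independent biological samples, but cells were pooled by genotype and the labels do not tie libraries to animals, so p-values measure the spread between these libraries, which may be in part technical.

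The 10 members, the gene lists and the marker lists were chosen with earlier results of these data known. All 10 members were named, together with those related factors with the 6 largest changes in each direction among those past both thresholds whose libraries did not overlap, and others are said to have been named after their values were seen. Of the related factors that this rule names, 1 is not reported here. Protein sequences were not used here. Alternatives were DESeq2 1.42.0, limma 3.58.1, edgeR's exact test and glmTreat, other scalings, filters and thresholds, all features, removal of trends on GC content or exon length, a replicate block, and each library left out in turn. Figures were drawn with matplotlib.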

Additional observations from a re-analysis of the deposited data

How the results depend on the processing

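Over 20 alternative settings, which gave 196 values for the 10 factors, no factor changed direction. Not all of these values could differ. Without a fold threshold and with glmTreat the log2 fold changes are those of the main fit, so only calls could change. For Prrx2, Twist2, Tbx3 and Tbx4 the CPM minimum of 1 repeats the reported fit. Since the lineages did not overlap for any of the 10 factors, leaving 1 library out could hardly reverse a direction. In 178 the call was as reported, in 11 it was lost and in 7 it was gained. Prrx2, Twist1 and Meis2 kept their calls wherever they were tested. Prrx2 and Tbx4 could not be tested without either Fgfr3CE-E12.5 library, since only 1 library then reached a CPM of 1, and Twist1 then fell below a CPM of 10 in all but 1 library and was taken from the lower filter. The number of factors higher in Fgfr3CE-E12.5 cells, 2 with the CPM minimum of 10, was 4 with a minimum of 1 and 4 without a filter, since more factors were tested. It was 1 with glmTreat, 1 with the GC trend removed, and 1 or 2 with each Dlx5CE-E12.5 library left out. Without either Fgfr3CE-E12.5 library this number cannot be compared, since Twist1 did not pass the filter. The log2 fold change of Pitx1 was 0.81 without Fgfr3CE-E12.5 replicate 3. The number higher in Dlx5CE-E12.5 cells stayed at 3 with each Dlx5CE-E12.5 library left out. It was 2 with glmTreat and 2 with scaling by mesenchymal genes. With a CPM minimum of 1, without a filter and without a fold threshold it was 4. The number called with the lower filter, 8, was 4 with glmTreat, which tests against the fold threshold itself. It was 7 to 9 with each Dlx5CE-E12.5 library left out. It cannot be compared without either Fgfr3CE-E12.5 library, where Prrx2 and Tbx4 were not tested. Meis1 (adjusted p = 0.0533), Tbx3 (0.0707), Tbx4 (0.0934) and Pitx1 (0.356) lost their calls with glmTreat.

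Of all genes, 2971 were called, against 4880 without a fold threshold and 1670 with glmTreat. The share of calls that were higher in Fgfr3CE-E12.5 cells, 55.6% (1653 genes against 1318), rose to 66.3% (1985 against 1009) with library size alone, which moved the median log2 fold change of all genes to 0.22, and to 76.6% (2549 against 778) with scaling by mesenchymal genes, which moved it to 0.46. Without either Fgfr3CE-E12.5 library this share cannot be compared, since genes at a CPM of 10 in Fgfr3CE-E12.5 cells alone no longer passed the filter. The number of genes tested then fell from 10088 to 9355 without replicate 2 and to 9356 without replicate 3. With scaling by mesenchymal genes, Prrx1 had a log2 fold change of -0.30 (adjusted p = 0.181).

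The lineages share the replicate numbers 2 and 3, but nothing in the labels says that a number marks a shared litter or day. Deviations from the group means correlated at 0.12 for the libraries numbered 2 and at -0.05 for those numbered 3. With 2 Fgfr3CE-E12.5 libraries, their deviations are equal in size and opposite in sign, so these values are not independent. Dlx5CE-E12.5 replicate 1 and Fgfr3CE-E12.5 replicate 3, which share no number, also correlated at 0.12. The correlations therefore cannot tell whether the numbers mark pairs. A replicate block gave 3 factors higher in Dlx5CE-E12.5 cells and 2 in Fgfr3CE-E12.5 cells, 7 called with the lower filter and 3060 genes called in all, and the block with the GC trend removed gave 3, 1, 8 and 3075.

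Depth limits Prrx2 and Tbx4, whose counts in Dlx5CE-E12.5 libraries were 0 to 11.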
